A study of Mus musculus with 145 samples.

Results

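The cells described here are those that the authors' annotation places in the 4 clusters of spermatogonial stem cells (SSCs), SSC1 to SSC4, during the reprogramming of mouse SSCs in culture. They were taken from batch B1, 1 of 2 batches in the annotation, and from libraries that held at least 5 such cells. This gave 1918 cells in 29 libraries, of 2265 SSC1-4 cells in both batches and of 4464 annotated cells in all. The other SSC1-4 cells, 331 of batch B2 and 16 in libraries with fewer than 5, were not used. Days 12, 14 and 16 formed the early group (398 cells in 8 libraries) and days 20 and 23 the late group (1038 cells in 13 libraries). Another 482 cells in 8 libraries of days 0, 10, 18 and 27 served as points of reference, with 1 library each on days 0 and 10 and 3 each on days 18 and 27.

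The series follows SSCs that are left in SSC medium and, with no added genes, form colonies of pluripotent cells. All groups shared the same origin and culture: SSCs of the B6D2F1 background, established in the week after birth from males whose mothers were C57BL/6 and carried an Oct4-EGFP or EGFP transgene and whose fathers were DBA/2, grown without passaging on fibronectin and inactivated embryonic fibroblasts with EGF, bFGF, GDNF and ESGRO (a preparation of LIF), with the treatment labelled as none. In GEO's labels early and late cells differ in the day of collection, and in the annotation also in Batch code. As a model of SSCs over time the groups are limited by how cells were chosen, since colonies were picked under the microscope and single cells were transferred by mouth pipette into lysis buffer, and by the feeder cells on which the colonies grow. RNA was read by modified STRT-seq, which sequences 1 end of each transcript and tags every molecule with a random barcode, the UMI, that removes PCR duplicates. UMIs were summed over the SSC1-4 cells of each library, and levels are given as CPM, in which TMM factors bring every library to the same scale. CPM is not per transcript length, and levels are compared between libraries and not between genes.

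SSCs depend on GDNF from their surroundings. GDNF binds GFRA1, which signals through the kinase RET and, together with FGF, maintains transcription factors such as *Etv5*, *Bcl6b* and *Lhx1* that are needed for self-renewal. Retinoic acid drives spermatogonia the other way, towards differentiation, with *Stra8*, *Sohlh1* and *Kit* among the genes that mark this step. FGF and GDNF both act in part through the ERK kinases, whose activity is followed by transcription of immediate early genes and of feedback inhibitors such as *Dusp6*. The comparison asks whether cells that kept an SSC annotation were alike before and after pluripotent colonies appeared.

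The sums held 610554 to 19858635 UMIs in the early libraries and 5025150 to 34168335 in the late ones. Late cells were the deeper. The library median was 147652 ± 84524 UMIs per cell early (SD, n = 8 libraries) and 307303 ± 56053 late (n = 13; 2-sided exact permutation test of the mean difference, p = 0.000113), and 7417 ± 713 genes early against 8922 ± 402 late (exact permutation p = 4.91e-06, the smallest this test can give). After thinning each cell to 50000 UMIs the difference was 6401 ± 175 against 6819 ± 212 genes (exact permutation p = 0.00026). The library median of the mitochondrial percent in the annotation was 1.39 ± 0.41 early and 0.83 ± 0.0942 late (exact permutation p = 1.97e-05), and its part in the results was not tested. The 3 day 16 libraries stood apart, with 7 to 10 SSC1-4 cells beside 85 to 87 meiotic cells each, and day 14 replicate 2 held 34 SSC1-4 cells beside 58 fibroblast cells. Many of the results that rest on them are given with and without them. Every early library carries a different Batch code in the annotation from every late library, so Batch code and period cannot be told apart. No source says that libraries of 1 collection are separate cultures, and p-values therefore measure the spread between libraries, which may be technical. In sums over cells, fewer cells of a kind and less RNA per cell cannot be told apart.

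SSC markers were present in both groups. *Zbtb16*, a zinc finger repressor that maintains SSCs, was at 84.9 to 270 CPM in the early libraries (median 131) and at 76.3 to 117 in the late ones (median 99.2). *Dazl*, an RNA-binding protein of germ cells, was at 850 to 1242 CPM early (median 948) and at 541 to 886 late (median 648). No library lacked *Zbtb16*, *Dazl*, *Dmrt1* or *Ddx4*, and the sum of these 4 markers was 1707 to 2382 CPM early and 1172 to 1660 CPM late. Of the blood cell markers, *Ptprc*, *Csf1r* and *Lyz2* summed to at most 6.76 CPM in any early library and 3.02 in any late one. The list of 7 measured blood genes, *Cd68* included, summed to 10.8 to 29 CPM early and 33.9 to 78.7 late, without overlap, and its part in the results was not tested.

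The clusters into which the SSC1-4 cells fell changed between days 18 and 20. SSC3 and SSC4 together made up 1.08% of the cells on day 12 (2 of 185, exact binomial 95% interval 0.131 to 3.85). They made up 8.51% on day 14 (16 of 188, 4.94 to 13.5) and 0 of 25 cells on day 16, where a limit of 3 counts is a share of 12% and the exact binomial interval reaches 13.7%. On day 20 they made up 69.3% (382 of 551, 65.3 to 73.2) and on day 23 they made up 92.0%. By library the share lay between 0 and 12.1% in the early group and between 51.1% and 97.8% in the late group. The groups did not overlap. These intervals cover counting error only.

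Days of reference did not lie on a straight course between these values. SSC3 and SSC4 made up 11.7% of the day 0 cells (11 of 94, interval 5.99 to 20.0) and 26% of the day 10 cells (13 of 50, 14.6 to 40.3). The share was 1.48% on day 18 (4 of 270, 0.405 to 3.75) and 30.9% on day 27 (21 of 68, 20.2 to 43.3). SSC1, the largest cluster on day 12 with 89.7% of cells, held 4.72% on day 23. SSC2 held 47.9% of the day 0 cells and 38% of those of day 10. In the early group it held 9.19%, 30.3% and 8% (days 12, 14 and 16), and in the late group 19.6% and 3.29% (days 20 and 23), with 34.8% at day 18 and 36.8% at day 27. Because clusters were drawn from the same transcriptomes, these shares are given as a description. Late SSC1 cells had a median of 72210 UMIs and early SSC1 cells of 150441, whereas SSC2 cells had 289200 and 287688.

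**Figure D1:**
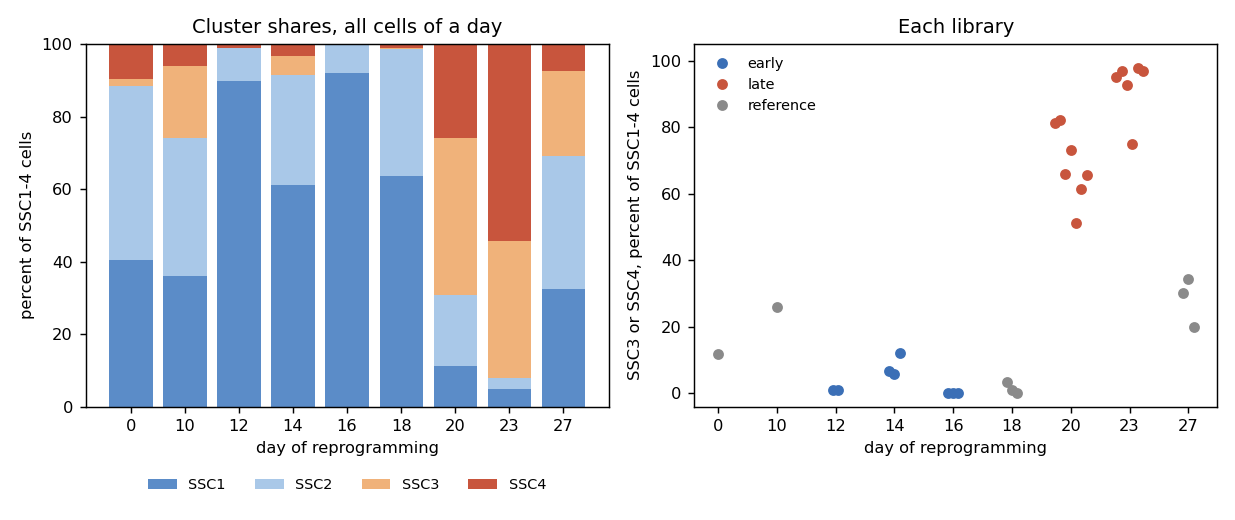
Left, percent of SSC1-4 cells of batch B1 in each of the 4 clusters by day of reprogramming, over all cells of a day. Right, percent of SSC1-4 cells in SSC3 or SSC4 in each library (1 point a library; blue early, red late, grey reference days). The early libraries lie between 0 and 12.1% and the late ones between 51.1% and 97.8%.

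Of 15323 genes tested between late and early sums, 1061 were higher in late libraries (6.92%) and 1152 were lower (7.52%) at an adjusted p below 0.05 (edgeR quasi-likelihood test with Benjamini-Hochberg adjustment). When the natural log of the fold change also had to reach 0.5 in size, 822 genes were higher and 258 lower. These include genes near 0 in the shallower early libraries, and the part of depth in this split was not tested. Late libraries lay above every early library for 131 genes (0.855%) and below every early library for 44 (0.287%). Over all genes tested the median log2 fold change, late over early here and below, was 0.02. In libraries of which at least 50% of cells were SSC1-4, 1259 of 16880 genes were higher (7.46%) and 1387 lower (8.22%). With day 23 as the only late day, without day 20, 523 of 14737 were higher (3.55%) and 617 lower (4.19%), and without day 23 the counts were 287 of 14482 (1.98%) and 445 (3.07%). Without day 16 the shares were 7.15% higher and 8.17% lower, in cells of 150000 to 300000 UMIs 4.64% and 3.79%, and with every cell thinned to 50000 UMIs 8.61% and 8%.

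GDNF response and self-renewal genes were called in both directions. Of 27 measured members of this list, 13 rose and 6 fell, beside 6.92% higher and 7.52% lower over all genes, with a median log2 fold change of 0.58 against 0.02. *Gfra1*, the GDNF co-receptor (chromosome 19 of GRCm38, 58235604 to 58455909), was at 0 to 23.7 CPM in the early libraries (median 13.6) and at 28.7 to 41.9 in the late ones (median 37.1). Every late library was above every early one. Its log2 fold change was 1.32 ± 0.26 (SE; edgeR adjusted p = 0.000622).

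*Ret*, which encodes the signalling kinase of the GDNF receptor (chromosome 6, 118151745 to 118197718), was at 2.74 to 101 CPM early (median 70.8) and 94.6 to 197 late (median 118). The ranges overlapped through 1 day 16 library at 101 CPM, the other day 16 libraries being at 2.74 and 13.7, and *Ret* rose by 1.01 ± 0.26 on the log2 scale (edgeR adjusted p = 0.00913). *Etv5*, an ETS factor downstream of GDNF and FGF (chromosome 16, 22381309 to 22439719), was at 9.75 to 53.7 CPM early (median 38.0) and 90.1 to 165 late (median 113). The libraries of both periods were apart, and the log2 fold change was 1.77 ± 0.23 (edgeR adjusted p = 5.78e-06).

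The other members that rose included transcription factors and surface proteins. *Bcl6b*, a repressor induced by GDNF, went from a mean of 27.6 to 75.3 CPM, and *Lhx1*, a LIM homeobox factor also induced by GDNF, from 25.1 to 69.5. *T* (brachyury), a T-box factor reported in undifferentiated spermatogonia, was at 0 to 8.02 CPM early (median 0.349) and 10.7 to 35.4 late (median 21.1), with no overlap and a log2 fold change of 2.77 ± 0.49 (edgeR adjusted p = 0.000204). *Tspan8*, a surface tetraspanin that marks spermatogonia rich in stem cells, was at 2.49 to 28 CPM early (median 9.21) and 36.9 to 124 late (median 63.4), again with no overlap (2.2 ± 0.28, edgeR adjusted p = 3.28e-06).

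*Id4*, an inhibitor of bHLH factors that marks the stem cell pool, rose by 1.15 ± 0.36 from a median of 4.83 to 20.2 CPM (edgeR adjusted p = 0.0292), with overlapping libraries. Its edgeR adjusted p was 0.0625 without day 12 replicate 3, 0.0610 without day 14 replicate 2, 0.0524 without day 23 replicate 6 and 0.0713 without the day 16 libraries. *Eomes*, another T-box factor of rare stem spermatogonia, rose by 1.39 ± 0.42 from a mean of 4.71 to 14.6 CPM (edgeR adjusted p = 0.0217, and 0.0654 without the day 16 libraries).

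The list did not move as a whole. *Zbtb16* fell by 0.59 (SE 0.15, edgeR adjusted p = 0.00568) and *Nanos3*, an RNA-binding protein of undifferentiated germ cells, by 0.81 from a mean of 264 to 152 CPM (edgeR adjusted p = 4.89e-05). *Sall4*, a zinc finger factor of germ cells, fell from a mean of 157 to 106 CPM and *Uchl1*, a deubiquitinase abundant in spermatogonia, from 1128 to 648. *Cd9*, a surface tetraspanin used to enrich SSCs, had 173 to 401 CPM early and 321 to 505 late (edgeR adjusted p = 0.0914, but 0.0497 without day 14 replicate 1 and 0.0424 without day 14 replicate 2). Its log2 fold change was 0.054 without the day 16 libraries (edgeR adjusted p = 0.744), 0.090 for late against day 18 and 0.034 in SSC2. *Foxo1*, a forkhead factor needed for SSC maintenance, had 49.3 to 181 CPM early and 58.7 to 107 late (edgeR adjusted p = 0.117), and was called lower without day 16 replicate 1 (0.0178), day 16 replicate 5 (0.0441) or all day 16 libraries (0.00172). The list's median log2 fold change was 0.55 without the day 16 libraries (12 higher and 6 lower of 27) and 0.60 in cells of 150000 to 300000 UMIs (8 and 4 of 26), and 0.56 in the libraries of which at least 50% of cells were SSC1-4 (12 and 7 of 27). Over all genes the shares higher and lower in these settings were 7.15% and 8.17%, 4.64% and 3.79%, and 7.46% and 8.22%.

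**Figure D2:**
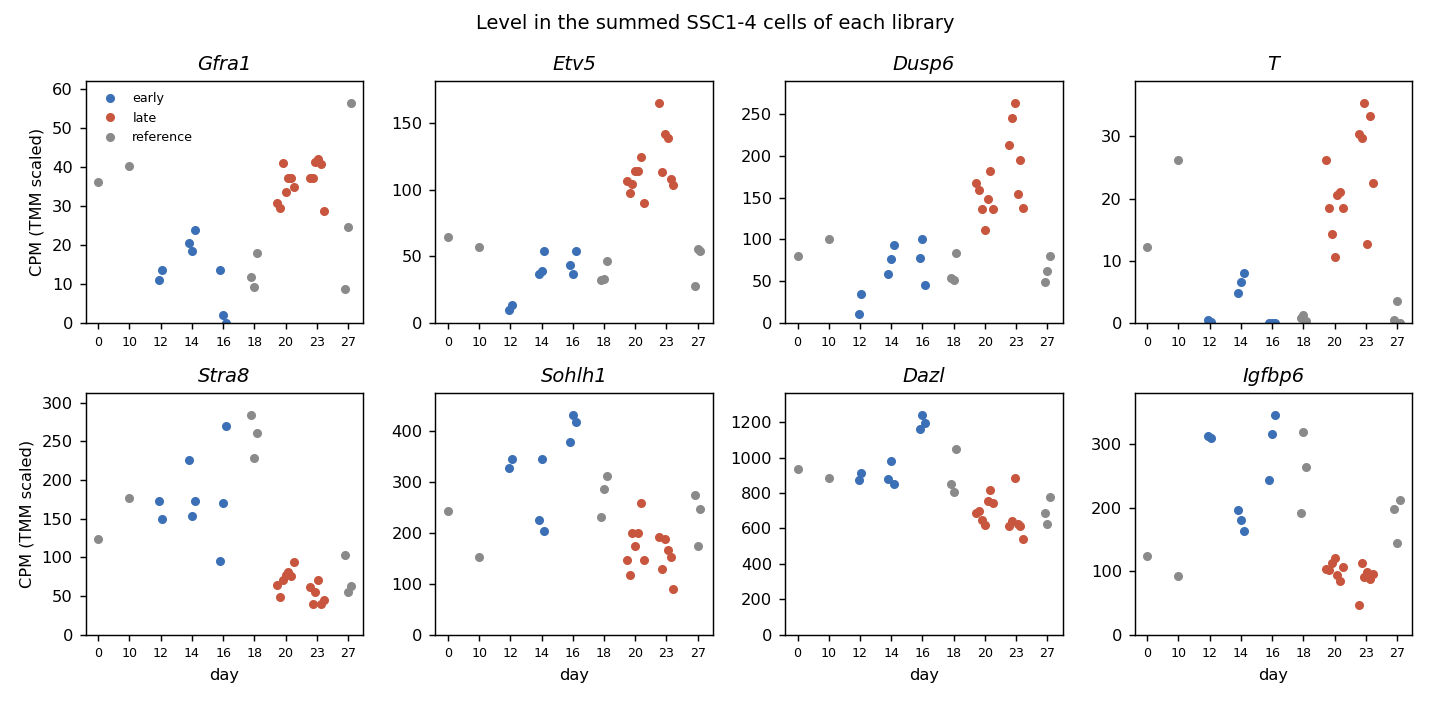
CPM (TMM scaled, linear axes) of 8 genes in the summed SSC1-4 cells of each library by day (1 point a library; blue early, red late, grey reference days). *Gfra1*, *Etv5*, *Dusp6* and *T* lie higher in every late library than in any early one, *Stra8* and *Igfbp6* lower, and the libraries overlap for *Sohlh1* and *Dazl*.

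Of 14 measured members of the ERK feedback list, genes that answer ERK signalling, 7 rose and none fell (edgeR, 0 lower of 14, with DESeq2 also giving 7 higher and 0 lower), beside 6.92% higher over all genes. All 14 had a log2 fold change above 0, with a median of 0.85. The list shares *Etv5* with the previous one. *Dusp6*, the phosphatase that inactivates ERK (chromosome 10, 99263231 to 99267489), was at 10.4 to 101 CPM early (median 68.1) and 111 to 263 late (median 159), without overlap, at a log2 fold change of 1.53 ± 0.27 (edgeR adjusted p = 0.000299). *Etv4*, a further ETS factor of this pathway, was at 2.66 to 56.1 CPM early (median 23.2) and 50.5 to 95.5 late (median 69.0), overlapping through 1 day 16 library (1.98 ± 0.36, edgeR adjusted p = 0.000325).

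*Spred2*, an inhibitor of the RAS to ERK step, rose from a mean of 10.9 to 26.1 CPM. *Dusp4*, a second ERK phosphatase, was rare, at a median of 0 CPM early and 4.81 late (2.34 ± 0.68, edgeR adjusted p = 0.0172, and 0.0503 without the day 16 libraries). *Spred1*, the relative of *Spred2*, was at 8.22 to 48.6 CPM early and 29.5 to 57.0 late and did not pass (edgeR adjusted p = 0.329). Summed over the list, the level was 163 to 485 CPM in the early libraries and 556 to 774 in the late ones. The median log2 fold change of the list was 1.22 without the day 16 libraries (8 of 14 higher, beside 7.15% of all genes). It was 1.96 in cells of 150000 to 300000 UMIs (10 of 14 higher, beside 4.64%).

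Immediate early genes, the transcripts made within minutes of growth factor stimulation, had 8 higher and 0 lower of 16 (edgeR, with the same counts by DESeq2), beside 6.92% higher over all genes, and a median of 0.75. Within SSC1 and SSC2 the median was 0.20 and 0.49, with no member called. *Junb*, an AP-1 subunit, was at 19.2 to 46.4 CPM early (median 31.5) and 45.2 to 149 late (median 84.8), and *Egr2*, a zinc finger factor, at 3.87 to 43.9 (median 19.5) and 41.0 to 136 (median 61.9). Both rose, by 1.46 ± 0.22 and 1.68 ± 0.29 (edgeR adjusted p = 2.43e-05 and 0.000146), with ranges that overlapped at the edge. *Ier3* and *Klf6* lay higher in each late library than in any early one (log2 fold changes 1.0 ± 0.15 and 1.40 ± 0.26). *Ier2*, a nuclear protein induced by growth factors, had 20.3 to 138 CPM early and 40.0 to 190 late (edgeR adjusted p = 0.115, but 0.0375 without day 23 replicate 4 and 0.0261 without the day 16 libraries).

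Of 17 measured genes of differentiating spermatogonia, 8 fell and none rose (edgeR; DESeq2 gave 7 lower and 0 higher), beside 7.52% lower over all genes, with a median log2 fold change of -0.31. *Stra8*, the retinoic acid target that prepares germ cells for meiosis (chromosome 6, 34920163 to 34939344), was at 95.9 to 269 CPM in the early libraries (median 171) and at 39.4 to 94.0 in the late ones (median 64.5). No late library reached the lowest early one. It fell by 1.48 on the log2 scale (SE 0.16, edgeR adjusted p = 2.66e-07).

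*Sohlh1*, a bHLH factor of early differentiation (chromosome 2, 25842995 to 25847248), was at 203 to 431 CPM early (median 344) and 88.7 to 257 late (median 166) and fell by 1.0 (SE 0.15, edgeR adjusted p = 3.42e-05). *Sox3*, a factor of the progenitor to differentiating step, fell by 0.80 from a mean of 33.1 to 19.8 CPM (edgeR adjusted p = 0.0256), with an adjusted p of 0.148 without day 12 replicate 1 and 0.0663 without day 14 replicate 1. *Dmrtb1*, which controls the exit from mitosis, had 152 CPM in day 16 replicate 1 and at most 18.7 in any other early library. Its log2 fold change was -2.43 (edgeR adjusted p = 0.0347), -0.04 without that library and 0.63 without all day 16 libraries, and the call was also lost without day 16 replicate 5 or day 23 replicate 3 (0.0516 and 0.0524).

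*Kit*, the receptor that marks differentiating spermatogonia, was at 7.48 to 29 CPM early and 7.51 to 17.9 late (log2 fold change 0.05 ± 0.26, edgeR adjusted p = 0.935). *Ccnd2*, a G1 cyclin that rises at differentiation, was at 223 to 644 CPM early and 393 to 716 late (0.35 ± 0.14, edgeR adjusted p = 0.0917, but 0.0174 without day 16 replicate 2 and 0.0355 without the day 16 libraries). Without the day 16 libraries the list had 5 lower and 2 higher of 17 at a median of -0.18, beside 8.17% and 7.15% of all genes. In cells of 150000 to 300000 UMIs it had 2 lower and 3 higher of 16 at a median of 0.04, beside 3.79% and 4.64%. *Stra8* and *Sohlh1* were lower under both.

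All 15 members of the germ cell identity list had a log2 fold change below 0 (median -0.34), and 9 of them fell, beside 7.52% of all genes. *Dazl* fell by 0.57 (SE 0.09, edgeR adjusted p = 4.88e-05; chromosome 17, 50279395 to 50293636), with overlapping libraries. *Ddx4*, the germ cell RNA helicase, was at 442 to 491 CPM early and 348 to 483 late, and its change of -0.20 ± 0.07 passed narrowly (edgeR adjusted p = 0.0413) and was lost on leaving out any 1 of 13 of the 21 libraries, with an adjusted p of up to 0.0802. Without the day 16 libraries its edgeR adjusted p was 0.0642. *Dmrt1*, a germ cell and testis factor, was at 177 to 437 CPM early and 81.5 to 318 late (edgeR adjusted p = 0.0787, but 0.0314 without day 12 replicate 3 and 0.0429 without day 20 replicate 4). Its log2 fold change was -0.28 without the day 16 libraries (edgeR adjusted p = 0.452), 0.15 in SSC1 and 0.18 in SSC2. *Gtsf1*, a piRNA cofactor, and *Tex19.1*, a germ cell gene that restrains retrotransposons, did not pass (edgeR adjusted p = 0.205 and 0.995), but *Tex19.1* was 0.38 higher on the log2 scale without the day 16 libraries (edgeR adjusted p = 0.000903).

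These germ cell differences were smaller in some selections of cells. In cells of 150000 to 300000 UMIs, with 5 early and 12 late libraries, the list had 1 lower and 1 higher of 15, beside 3.79% and 4.64% of all genes. Its median was -0.12, and the log2 fold change of *Dazl* was -0.07 (edgeR adjusted p = 0.576). With every cell thinned to 50000 UMIs the list had 4 lower and 0 higher of 14 at -0.21, beside 8% and 8.61% of all genes. Without the day 16 libraries it had 6 lower and 1 higher of 15 at -0.27, beside 8.17% and 7.15% of all genes. *Dazl* was then at -0.40 (edgeR adjusted p = 0.00189). The part of depth in the main comparison was not tested.

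Of 23 meiotic genes tested, 4 fell and none rose (edgeR; DESeq2 gave 5 and 1), beside 7.52% lower over all genes. Their median was -0.07 (-0.11 to -0.051 leaving out 1 library). *Sycp1*, a synaptonemal complex protein, was at 515 to 1012 CPM early (median 616) and 361 to 512 late (median 453), just without overlap (-0.54 ± 0.09, edgeR adjusted p = 0.000143). *Sycp3*, an axial element protein of the germ cell list, fell from a mean of 78.2 to 43.6 CPM. *Prdm9*, the methyltransferase that places recombination sites, was at 67.1 and 77.3 CPM in 2 day 16 libraries and at most 9.67 in the other early ones. Its log2 fold change was -2.58, and -0.88 (edgeR adjusted p = 0.125) without day 16. Genes of the piRNA pathway had 5 lower and 0 higher of 17 (edgeR, with the same counts by DESeq2). Without day 16, 2 of them were lower, beside 8.17% of all genes. *Mael* and *Fkbp6*, both needed for transposon silencing in germ cells, fell by 0.49 and 0.46 (edgeR adjusted p = 0.000346 and 0.00119).

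**Figure D3:**
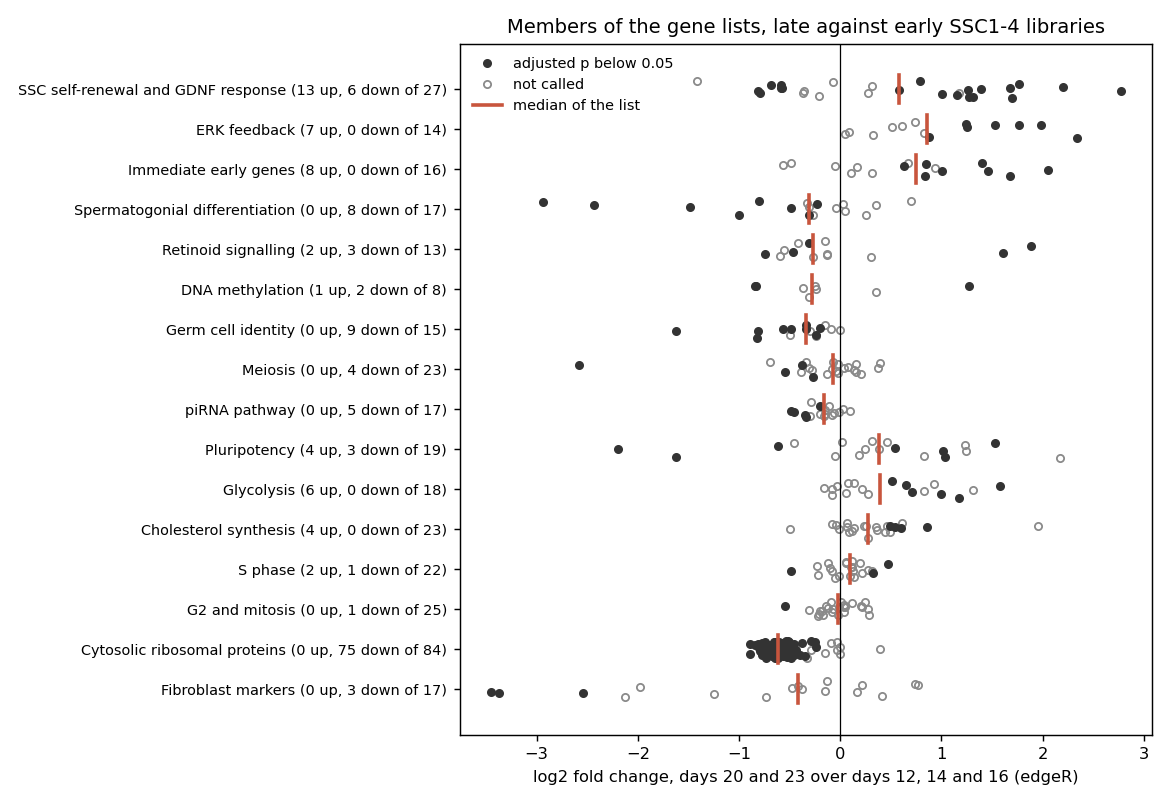
Log2 fold change of late over early SSC1-4 sums for the tested members of 16 gene lists (1 point a gene; filled where the edgeR adjusted p is below 0.05, open otherwise; red bar, median of the list). ERK feedback members all lie above 0 and germ cell identity members all at or below 0, whereas members of the SSC self-renewal list lie on both sides.

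Glycolysis genes had 6 higher and 0 lower of 18 (edgeR; DESeq2 gave 8 and 0) at a median of 0.40, beside 6.92% higher over all genes. *Hk2*, hexokinase 2, was at 44.5 to 230 CPM early (median 159) and 171 to 490 late (median 301), and *Aldoc*, an aldolase, at 69.9 to 139 (median 120) and 169 to 238 (median 188). They rose by 1.0 ± 0.21 and 0.71 ± 0.10 (edgeR adjusted p = 0.00143 and 1.78e-05), and the libraries were apart for *Aldoc*. For late against day 18 *Hk2* was at 0.50 and not called (edgeR adjusted p = 0.249), and *Aldoc* was at 0.51 (0.00204). *Pfkp*, a phosphofructokinase, and *Ldhb*, a lactate dehydrogenase, rose by 1.58 ± 0.29 and 1.17 ± 0.24, but day 18 already held 33 to 93.3 CPM of *Pfkp* and 146 to 232 of *Ldhb*, within the late ranges of 30.3 to 145 and 127 to 234. *Pkm*, pyruvate kinase, was at 611 to 1041 CPM early and 508 to 909 late (edgeR adjusted p = 0.31).

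The hypoxia list had 3 higher and 1 lower of 19, beside 6.92% and 7.52% of all genes. The higher ones included *Slc2a3*, a glucose transporter, from a mean of 36.1 to 73.6 CPM, and *Adm*, the vasodilator peptide adrenomedullin, at 0.785 to 19.9 CPM early (median 4.45) and 47.1 to 134 late (median 72.4). Cholesterol synthesis genes had 4 higher and 0 lower of 23 (edgeR; DESeq2 gave 6 and 0), beside the same shares of all genes, among them *Srebf2*, the transcription factor of the pathway, and the mevalonate kinases *Mvk* and *Pmvk*, at log2 fold changes of 0.54 to 0.86. That count depended on the day 16 libraries, without which 17 of 23 were higher, beside 7.15% of all genes. The list's median of 0.28 ranged from -0.26 to 0.68 over the alternatives other than leaving out 1 library. In SSC1 cells *Srebf2*, *Mvk* and *Pmvk* were at -0.39, -0.14 and -0.61, not called.

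DNA methylation genes split. *Dnmt3a*, a de novo methyltransferase, was at 132 to 261 CPM early (median 194) and 89.1 to 137 late (median 104) and fell by 0.84 (SE 0.11, edgeR adjusted p = 3.63e-06). *Dnmt3l*, its catalytically inactive cofactor, rose by 1.27 ± 0.31 from a median of 5.82 to 17.5 CPM (edgeR adjusted p = 0.00476). For late against day 18 *Dnmt3a* was at -0.29 and *Dnmt3l* at 0.84, not called (edgeR adjusted p = 0.109 and 0.125). *Tet3*, a 5-methylcytosine dioxygenase, fell by 0.83 (edgeR adjusted p = 0.00256), and *Dnmt1*, the maintenance methyltransferase, and *Dnmt3b*, the other de novo enzyme, did not pass (edgeR adjusted p = 0.131 and 0.278), with *Dnmt1* at 0.0381 without day 12 replicate 1. Of 8 genes of this list tested, 1 rose and 2 fell, beside 6.92% and 7.52% of all genes.

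In the retinoid list 2 of 13 members rose and 3 fell, beside 6.92% and 7.52% of all genes. *Dhrs3*, which reduces retinal back to retinol, was at 0 to 11.6 CPM early (median 4.36) and 9.85 to 27.7 late (median 16.9). It rose by 1.88 ± 0.34 (edgeR adjusted p = 0.000261).

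Cytosolic ribosomal protein genes were lower together. Of 84 tested, 75 fell and none rose (edgeR, with the same counts by DESeq2), beside 7.52% lower over all genes, with a median log2 fold change of -0.61. They took 6.23% to 10.5% of the UMIs in the early libraries and 4.61% to 6.82% in the late ones, and these ranges overlapped. *Rpl37a* and *Rps24* fell by 0.84 and 0.81 (edgeR adjusted p = 0.000213 and 4.89e-05), and *Rpl39* was at 243 to 632 CPM early and 343 to 577 late (edgeR adjusted p = 0.992). Many of these genes have near-identical pseudogenes, and how reads were shared among copies is uncertain.

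The count of lower ribosomal genes differed between selections of cells. Among cells of 150000 to 300000 UMIs, which left 5 early and 12 late libraries, 11 of 84 genes were lower, beside 3.79% of all genes, at a median of -0.14. With every cell thinned to 50000 UMIs 74 of 84 were lower, beside 8%, at a median of -0.55. Within SSC1 the median was 0.08 and within SSC2 -0.08, with 0 of 84 called in either direction (edgeR), where 0.0206% and 0.175% of all genes were lower. Without the day 16 libraries 74 of 84 were lower, beside 8.17%, at a median of -0.43, and day 18 libraries had shares of 6.19% to 7.36%. The part of depth in this difference was not tested.

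**Figure D4:**
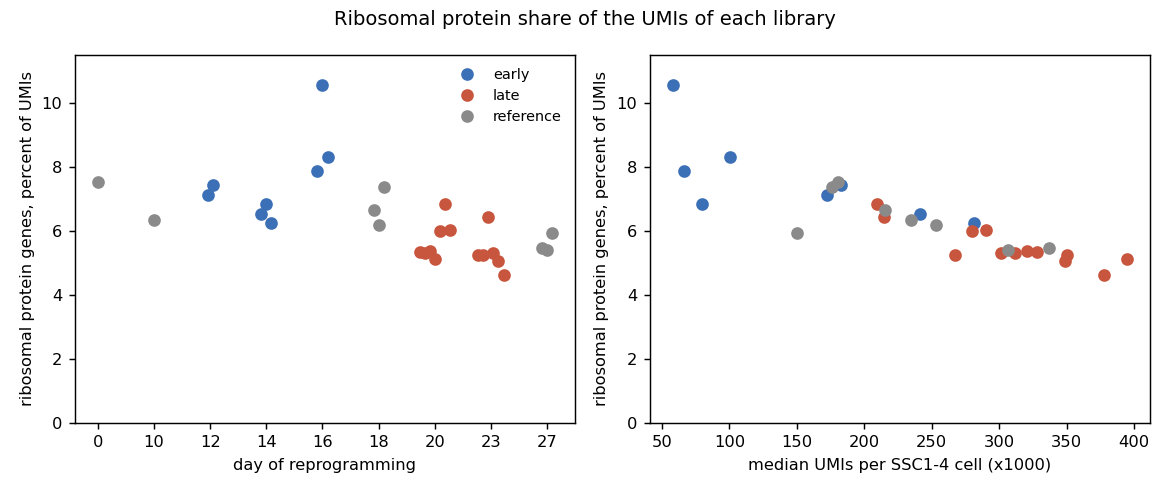
Percent of UMIs from cytosolic ribosomal protein genes in the summed SSC1-4 cells of each library, by day (left) and by the library's median UMIs per SSC1-4 cell (right; 1 point a library; blue early, red late, grey reference days). Early libraries lie at 6.23% to 10.5% and late ones at 4.61% to 6.82%, and the 3 highest shares are those of the day 16 libraries.

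By the naming rule, the genes with the largest rise among those without overlap were *Crmp1*, *Adam33*, *Adm*, *Tmigd3*, *Cdc42ep3*, *Emp3*, *Qpct*, *Nefl*, *Fer1l6* and *Gprc5a*, at log2 fold changes of 2.88 to 3.65. *Crmp1*, a cytoskeletal protein of neurons, was at 0 to 6.23 CPM early (median 2.06) and 13.4 to 37.5 late (median 25.5; edgeR adjusted p = 2.58e-07). *Emp3*, a small membrane protein, was at 2.74 to 25.1 CPM early (median 5.96) and 39.4 to 108 late (median 51.7), and *Cdc42ep3*, an effector of the GTPase CDC42, at 0 to 12.8 (median 3.22) and 28.7 to 87.5 (median 50.3). The early medians of the 10 genes lay between 0.423 and 5.96 CPM. *Plagl1*, an imprinted zinc finger factor, rose in the same manner, from 0.969 to 22.4 CPM early (median 9.42) to 43.8 to 76.7 late (median 54.5; 2.28 ± 0.33, edgeR adjusted p = 2.26e-05), the largest rise on a list of 21 imprinted genes of which 4 rose and 1 fell, beside 6.92% and 7.52% of all genes.

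Besides *Stra8*, the genes named by the rule among those that fell included *Igfbp6*, *Ccdc106*, *Ccdc6*, *Ddhd2*, *Tapbp*, *Zmym3*, *Lyrm4* and *Park7*, at log2 fold changes of -0.78 to -1.41. *Igfbp6*, a secreted protein that binds IGF2, was at 164 to 346 CPM early (median 277) and 47.2 to 121 late (median 99.3; edgeR adjusted p = 9.46e-08). *Tapbp*, which loads peptides on MHC class I, was at 193 to 334 CPM early (median 254) and 109 to 166 late (median 138), and *Park7*, an antioxidant protein, at 546 to 1085 (median 734) and 366 to 528 (median 427). *Isg15*, an interferon-induced ubiquitin-like protein, fell by 1.51 (SE 0.26, edgeR adjusted p = 0.000145) from a median of 44.6 to 13 CPM.

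Of 22 S phase genes of the cell cycle 2 rose and 1 fell, and of 25 genes of G2 and mitosis 1 fell, beside the 6.92% higher and 7.52% lower over all genes. Days within a group differed. The G2 and mitosis list summed to 4880 to 5835 CPM on day 20 and to 3401 to 4783 on day 23. It summed to 4165 to 4448 CPM on day 12 and to 5513 to 5918 on day 14. *Uhrf1*, which brings DNMT1 to replicated DNA, rose by 0.47 (SE 0.13, edgeR adjusted p = 0.011), while *Hells*, a chromatin remodeller, and *Cenpf*, a kinetochore protein, fell by 0.49 and 0.54 (edgeR adjusted p = 0.0014 and 0.000167). *Cdkn1a*, the CDK inhibitor p21, was at 35.9 to 192 CPM early (median 85.0) and 112 to 223 late (median 152) and rose by 0.86 (SE 0.20, edgeR adjusted p = 0.00391). It is also 1 of 3 higher among 21 p53 targets, of which 2 fell.

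The pluripotency list had 4 higher and 3 lower of 19, beside 6.92% and 7.52% over all genes, and 14 members had a log2 fold change above 0 and 5 below (median 0.38, and 0.24 to 0.56 leaving out 1 library). *Pou5f1* (Oct4) was at 0 to 33.6 CPM early (median 3.55) and 0.938 to 3.38 late (median 2.2), and its fall (log2 fold change -1.63) rested on day 16 replicate 5, without which it was -0.68 (edgeR adjusted p = 0.326). *Tfcp2l1*, a naive pluripotency factor, likewise had 111 CPM in day 16 replicate 1 and at most 13.5 in the other early libraries, and its log2 fold change of -2.19 was -0.93 without that library (edgeR adjusted p = 0.0511). *Utf1*, a chromatin factor shared by undifferentiated spermatogonia and pluripotent cells, rose by 1.02 (SE 0.26, edgeR adjusted p = 0.0066) from a mean of 32.3 to 69.5 CPM.

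The 7 fibroblast markers summed to 62.3 to 266 CPM in early libraries (median 155) and to 150 to 201 in late ones (median 183). The 4 neural markers summed to 0 to 12.5 CPM early (median 3.97) and to 4.29 to 28.5 late (median 12.4), and the 6 testis somatic markers to 9.67 to 37.0 (median 19.5) and 13.3 to 58.5 (median 29.3). Their part in the results was not tested. Of 17 fibroblast genes tested, 3 fell, beside 7.52% of all genes. *Col1a2* was at 0 to 36 CPM early and 0 to 7.78 late, *Col3a1* at 0 to 20.6 and 0 to 3.36, and *Col12a1* at 0 to 15.1 and 0 to 3.14. All 3 calls rested on single libraries. That of *Col3a1* was lost without day 14 replicate 2 (edgeR adjusted p = 0.0879) and that of *Col12a1* without day 16 replicate 1 (0.0502). That of *Col1a2* was lost without day 12 replicate 3, day 14 replicate 2, day 14 replicate 4, day 23 replicate 5 or day 23 replicate 7 (adjusted p of up to 0.0678). *Sox9*, a factor of Sertoli cells and other tissues, rose from a median of 1.52 to 14.3 CPM (2.96 ± 0.51, edgeR adjusted p = 0.000128), with *Amh* at most 0.302 CPM and *Insl3* at most 0.0957 in any early or late library. *Cd68*, a lysosomal protein of macrophages and other cells, rose from 4.76 to 25.1 CPM early to 30.1 to 68.6 late (1.91 ± 0.26, edgeR adjusted p = 6.69e-06) and had means of 13.8 and 47.9, within blood gene sums of median 24.7 CPM early and 55.4 late. The meiotic markers *Spo11*, *Dpep3* and *Dmc1* summed to 28.8 to 67.3 CPM early and 15.4 to 55.1 late.

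Over all genes 6.92% were higher and 7.52% lower. The ATF4 and amino acid stress list had 5 higher and 1 lower of 21 at a median of 0.25, the MHC class I and interferon list 1 higher and 2 lower of 15 at -0.21 (0.04 without day 14 replicate 2), and CDK inhibitors and G1 cyclins 1 higher and 0 lower of 12 at 0.15 (0.092 to 0.23 leaving out 1 library). Neural branch markers had 1 higher of 7, testis somatic markers 1 higher of 6 (*Sox9*) and blood markers 1 higher of 5 (*Cd68*). Pluripotent cell markers summed to 3.87 to 39.5 CPM in early libraries and 7.26 to 43.5 in late ones.

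Days 0 and 10, with 1 library each and no test, lay on different sides by gene. *Gfra1* was at 36.1 and 40.1 CPM and *T* at 12.2 and 26.2, within the late ranges, whereas *Etv5* at 64.4 and 57.3 and *Dusp6* at 79.8 and 100.2 lay between the groups and in the early range. *Stra8* at 124 and 176 CPM lay in the early range, and *Igfbp6* at 124 and 92.5 just above and in the late one. Of the genes called higher in late libraries, 48.3% were nearer the late mean on day 0 and 49.9% on day 10, and of those called lower 29.3% and 43.1%.

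Few genes were called between day 18 and the early group. Against the early libraries 1 gene of 15508 was called on day 18 (0.00645% higher and 0 lower; 313 genes had an unadjusted p below 0.05 by edgeR). Against day 18, the late libraries had 813 higher (4.64%) and 636 lower genes (3.63%) of 17519, with the late libraries shared between this and the main comparison. *Etv5* was at 32 to 46.5 CPM on day 18, *Dusp6* at 51.8 to 83.2, *T* at 0.372 to 1.30 and *Stra8* at 229 to 284. Of 91 genes named, 67 kept their result in late against day 18, called or not, and 19 lost their call. *Spred2* (0.41), *Utf1* (0.52) and *Lyrm4* (-0.23) were among the latter (edgeR adjusted p = 0.409, 0.183 and 0.246). For day 18 against early these were at 0.85, 0.54 and -0.55, not called. The 3 day 18 libraries come from 2 Batch codes, of which 1 is that of the early libraries. In each of them the larger part of the higher genes, 62.1%, 62.4% and 65.5%, lay nearer the early mean, as did 63.8%, 58% and 77.6% of the lower genes.

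Day 27 was mixed. Of the genes lower in late libraries, 66.3% to 78.5% were nearer the late mean in its 3 libraries, but of the higher genes only 42.6% to 64.9%. *Stra8* was at 55.1 to 103 CPM, with 2 of 3 libraries in the late range, while *Dusp6* at 48.9 to 80.0 and *T* at 0 to 3.52 were in the early range and *Etv5* at 27.9 to 55.6 in it or just above. These libraries held 10 to 38 SSC1-4 cells beside 57 to 76 neural cells.

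Within single clusters fewer differences passed. In SSC2 cells, with 4 early and 7 late libraries of at least 5 such cells, 31 genes were higher (0.247%) and 22 lower (0.175%) of 12553. The GDNF list had a median of -0.11 there, with *Bcl6b* its only call (1.88, edgeR adjusted p = 0.0472), and the ERK list of 0.97, with 0 of 13 ERK genes called. *Stra8* was called lower (-1.17, edgeR adjusted p = 0.0416), as was *Dnmt3a* (-1.03, adjusted p = 0.0211), and *Hk2* and *Aldoc* were called higher (0.88 and 0.83, edgeR adjusted p = 0.0399 and 0.0423). *Gfra1* and *Etv5* had log2 fold changes of 1.31 and 1.6 and did not pass (edgeR adjusted p = 0.4 and 0.154).

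In SSC1 cells, with 8 early and 6 late libraries, 0 genes were higher and 2 lower (0.0206%) of 9701 by edgeR, and 793 had an unadjusted p below 0.05. The log2 fold changes of *Gfra1*, *Etv5* and *Dusp6* were 1.06, 1.35 and 1.01 in SSC1, and that of *Stra8* was -0.64. SSC3 and SSC4 were not compared within themselves, since 18 early cells in all belonged to them, and fewer than 2 early libraries had 5 cells of either cluster.

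**Figure D5:**
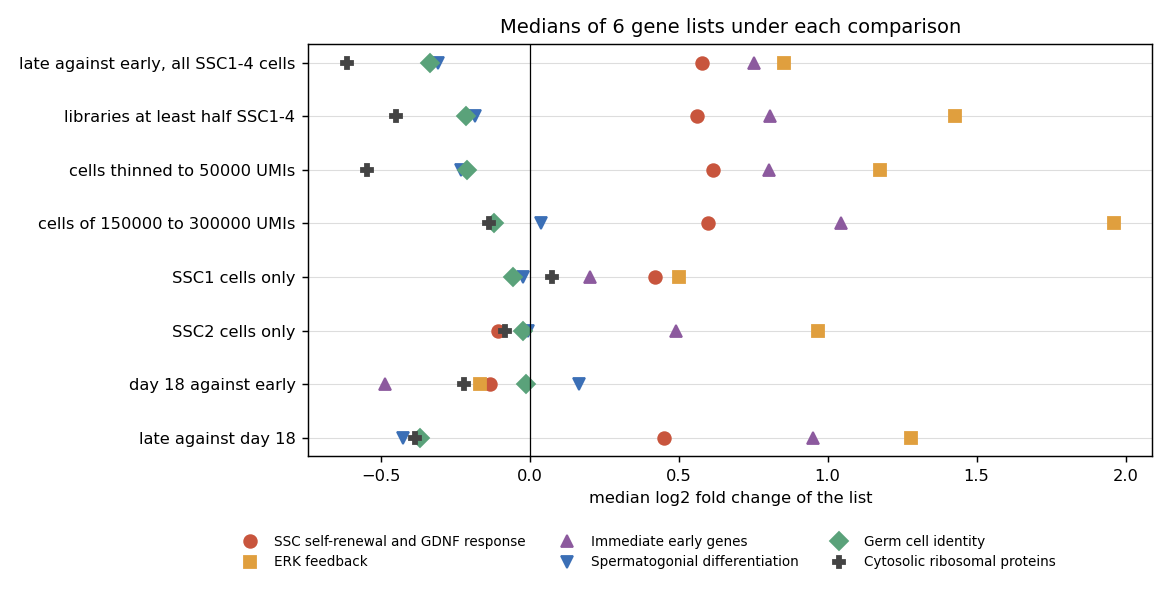
Median log2 fold change of 6 gene lists under the main comparison, 5 restrictions of its cells or libraries, and the 2 comparisons with day 18 (1 symbol a list). The ERK feedback median is above 0 in every row except day 18 against early, and the ribosomal median lies between -0.14 and 0.08 when cells of 150000 to 300000 UMIs, of SSC1 or of SSC2 are compared.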

How the data were processed

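The authors aligned the reads with STAR 2.7.2b to mm10 and counted them with featureCounts 2.0.0, as the submitters' processing notes list, and deposited a table of UMI counts per gene and cell. The deposited annotation gives each cell's cluster, batch, Batch code and percent of mitochondrial UMIs as made by the authors with Seurat. Library names were joined to GEO titles through the deposited barcode table. No cell ID occurred more than once, and 3 libraries held cells of 2 collections. The 1713 table columns of other libraries were not used.

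Raw counts of SSC1-4 cells were summed per library with at least 5 such cells, giving 610554 to 34168335 UMIs. Late and early sums were compared in R 4.3.3 with edgeR 4.0.16 (TMM, filterByExpr, robust quasi-likelihood fit and F-test, Benjamini-Hochberg adjustment over all 15323 genes tested, called at an adjusted p below 0.05). SE is the absolute log2 fold change divided by the square root of F. DESeq2 1.42.0, other normalizations, filters, cell selections and days, each library left out and a replicate block were alternatives. Depth was compared with exact permutation tests in Python 3.11. Days of reference were placed on log2(CPM + 1) by the midpoint of the group means. In simulated counts for the late against early comparison (15889 genes), 14, 46, 50 and 50 of 50 genes changed 1.5-, 2-, 4- and 0.25-fold were recovered and 9 unchanged genes were called.

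The cells, gene lists and rules were chosen with earlier results of these data known. Genes were named by rule: the markers *Zbtb16* and *Dazl* with *Gfra1*, *Ret*, *Etv5*, *Id4*, *Kit*, *Stra8*, *Dmrt1* and *Ddx4*; the 10 called genes in each direction with the largest change among those without overlap and with at least 10 CPM in the higher group; and in each of 26 lists up to 4 called members with the largest change and at least 5 CPM, and up to 2 uncalled members of highest CPM. *Bcl6b*, *Lhx1*, *Eomes*, *Sall4*, *Uchl1*, *Spred2* and *Utf1* were outside it and were chosen after their values were seen. Some genes that the rule takes are not reported here. No protein gene of the mitochondrial genome was in the table. Gene positions are those of GENCODE for GRCm38, the same assembly as mm10.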

Additional observations from a re-analysis of the deposited data

Results flagged for a closer look

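In the group of 8 early libraries, 16 of 95 values tested had 1 library far from the others. The rule flags about 1 in 20 independent values of normal spread. CPM of related genes need not be such values, so an excess over chance is not shown. Day 16 replicate 1 held the highest *Dmrtb1* (152 CPM, next 18.7), *Ccdc106* (166, next 80.9), *Ddhd2* (282, next 201) and *Tfcp2l1* (111, next 13.5) and the lowest *Aldoc* (69.9, next 107). Day 16 replicate 2 held the highest *Etv4* (56.1 CPM, next 27.4), *Sycp1* (1012, next 737), *Rpl37a* (3033, next 1938), *Emp3* (25.1, next 10.3), *Park7* (1085, next 792), *Pkm* (1041, next 763) and *Cenpf* (987, next 698). Day 16 replicate 5 held the highest *Pou5f1* (33.6 CPM, next 6.76) and *Cdkn1a* (192, next 104.2). Day 14 replicate 2 held the highest *Col3a1* (20.6 CPM, next 7.55) and *Sox9* (7.67, next 2.49). The day 16 libraries rest on 7 to 10 SSC1-4 cells each. The group of 13 late libraries was too large for this rule.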

How the results depend on the processing

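Counts of called genes depended on the samples and cells compared. Against 1061 higher and 1152 lower genes, DESeq2 gave 1671 higher, cells of 150000 to 300000 UMIs gave 634 and 518, SSC1 cells 0 and 2, and SSC2 cells 31 and 22. Day 18 against early gave 1 and 0, and late against day 18 gave 636 lower. Without day 20 the counts were 523 and 617, and without day 23 they were 287 and 445. Sums per day, with 3 early and 2 late days, gave 0 and 0 (edgeR, 1927 genes at an unadjusted p below 0.05). A fold threshold left 258 lower. Leaving out 1 library gave 912 to 1156 higher and 1018 to 1221 lower genes. Of 91 genes named, 82 lost no call when 1 library was left out. That count includes genes not called in the main comparison, such as *Kit* and *Gtsf1*, which had no call to lose. Direct comparisons within SSC3, SSC4 or a Batch code were not run, because fewer than 2 early libraries had 5 SSC3 cells, fewer than 2 had 5 SSC4 cells and no Batch code holds both groups, so that Batch code could not be a covariate.

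The replicate numbers did not pair the libraries: deviations of same-numbered libraries correlated at -0.07 to 0.05. With the replicate block 432 genes were higher and 385 lower.

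The list medians also moved. For SSC self-renewal the median was -0.11 in SSC2 and -0.13 for day 18 against early (0.43 to 0.66 leaving out 1 library). For spermatogonial differentiation it was -0.023 in SSC1, -0.0052 in SSC2, 0.039 in the UMI window and 0.17 for day 18 against early (-0.34 to -0.22 leaving out 1 library). For germ cell identity it was -0.056 in SSC1, -0.023 in SSC2, -0.21 with thinned cells, -0.12 in the UMI window, -0.012 for day 18 against early, -0.21 in libraries of at least 50% SSC1-4 cells and -0.53 without day 14 (-0.40 to -0.28 leaving out 1 library). For ERK feedback it was 1.96 in the UMI window, -0.17 for day 18 against early, 1.28 for late against day 18, 1.43 in libraries of at least 50% SSC1-4 cells, 1.41 without day 14 and 1.22 without day 20 (0.69 to 1.15 leaving out 1 library). For immediate early genes it was 0.20 in SSC1, 0.49 in SSC2, 1.05 in the UMI window, -0.49 for day 18 against early and 0.52 without day 23. For ribosomal genes it was 0.076 in SSC1, -0.084 in SSC2, -0.14 in the UMI window, -0.22 for day 18 against early and -0.38 for late against day 18. The causes were not tested. Shares of SSC3 and SSC4 of all cells in place of SSC1-4 cells were 2.37% early and 67.3% late.

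Log2 fold changes of some named genes changed sign, given here for those called in the main comparison or in the selection concerned. In SSC1 they were -0.55 for *Egr2*, -0.020 for *Klf6*, 0.16 for *Fkbp6*, 0.14 for *Rpl37a*, 0.19 for *Rps24*, -0.61 for *Pmvk*, -0.14 for *Mvk*, -0.39 for *Srebf2*, -1.05 for *Cdkn1a* and 0.13 for *Hells*. In SSC2 they were 0.022 for *Ddx4*, -0.18 for *Id4*, 0.12 for *Dmrtb1*, -0.52 for *Junb*, 0.49 for *Tex19.1*, 0.075 for *Sycp1*, 0.040 for *Fkbp6*, -0.16 for *Cdkn1a*, 0.039 for *Hells* and -1.50 for *Eomes*. Without day 16, which equals the rule of at least 20 cells per library, they were 0.63 for *Dmrtb1* and 0.38 for *Tex19.1*, and in libraries of at least 50% SSC1-4 cells 0.35 and 0.39. In the UMI window they were 0.80 for *Tex19.1* and 0.28 for *Pkm*. For late against day 18 *Dmrtb1* was at 0.0024. Genes called in neither also turned, such as *Pkm* at 0.54 and *Foxo1* at 0.30 in SSC1, and *Dmrt1* at 0.15 in SSC1 and 0.18 in SSC2.

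For day 18 against early, where few genes were called, the signs opposite to the late group among genes called in the main comparison were 0.17 for *Ddx4*, -0.078 for *Gfra1*, -0.25 for *Id4*, -1.77 for *T*, 0.55 for *Stra8*, 0.36 for *Sox3*, -0.046 for *Dusp4*, -0.42 for *Etv4* and *Egr2*, -0.56 for *Junb*, -0.20 for *Ier3*, 0.12 for *Sycp3*, 0.21 for *Pou5f1*, -0.47 for *Crmp1*, -1.44 for *Tmigd3*, -0.30 for *Emp3*, -0.37 for *Qpct*, -0.070 for *Fer1l6*, 0.00058 for *Igfbp6*, 0.041 for *Zmym3*, -0.17 for *Pmvk*, -0.35 for *Dhrs3*, -0.82 for *Cdkn1a*, -0.50 for *Cd68*, -0.51 for *Bcl6b*, -0.85 for *Lhx1* and -0.091 for *Eomes*. Genes not called there also turned, such as *Ier2* at -1.21, *Spred1* at -0.51 and *Ccnd2* at -0.39.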
